A study of Mus musculus with 24 samples.

Results

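The accessible chromatin of 7 genes known from megakaryocytes, platelets and aged blood stem cells was followed in transplanted mouse marrow: Vwf, Selp, Pf4, Itga2b, Itgb3, Cavin2 and Clu. A region belonged to the set when it overlapped the body of such a gene, or when the nearest end of a protein-coding gene lay within 50 kb and was an end of such a gene. This rule gave 10 of 13910 regions, which covered 6 of the 7 genes: 3 for Itga2b, 2 for Selp, 2 for Vwf and 1 each for Cavin2, Pf4 and Clu. Itgb3 had 0 regions, and the region closest to it lay 57205 bp from its nearer end. All 10 regions passed the filter on low counts, as did 13325 regions in all. The genes were chosen by a measured value in part: the region inside Cavin2 was selected on its lower accessibility in MPP3 than in HSC of WT recipients. That comparison, and others of the Cavin2 region that use those WT libraries, are therefore given as descriptions and without a test.

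ATAC-seq, which reads open chromatin through the insertion of sequencing adapters by Tn5 transposase, was applied to sorted donor cells. In all 8 groups the profiled cells came from WT CD45.1 marrow that had been given to young CD45.2 mice and was recovered 13 to 15 weeks later. The recipients were either WT or of the line titled IκB– (IkB in the genotype label). The labels do not state the genetic change, its promoter or the cells that carry it, nor whether a sample was 1 animal or a pool, so p-values measure the spread between samples. From each recipient type 4 subsets of lineage-negative, Sca1+, cKit-high cells were taken, with 500 to 1500 cells per sample: HSC (labelled LT-HSC), MPP2, MPP3 and the Flt3+ MPP4. Each group had 3 libraries, and because replicates 2 and 3 of WT MPP3 agreed within sampling noise they were summed, leaving n = 2 in that group and 23 replicates in all.

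Megakaryocytes are the marrow cells that shed platelets, and a fraction of stem cells carries part of their programme and is biased towards this lineage. Among multipotent progenitors, MPP2 is the class known for megakaryocyte and erythroid bias, MPP3 for myeloid and MPP4 for lymphoid bias. Ageing stem cells are known to gain expression of several platelet genes, among them Vwf and Selp, together with Clu. The platelet proteins of the set act in sequence: Vwf tethers platelets to vessel walls, the integrin of Itga2b and Itgb3 binds fibrinogen and cross-links them, and Selp and Pf4 are released to the surface or into plasma from the same granules.

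By position, 3 of the 10 were within 1 kb of a gene end (55.9% of tested regions were), 6 were deeper inside gene bodies, and 1 was outside genes. The Cavin2 region (mm10, chr1:51300260-51300616, 357 bp) was inside the gene body, 11134 bp downstream of the start and 2344 bp from the other end. The Selp regions were chr1:164109929-164110129, 5135 bp upstream of the start, and chr1:164135334-164135765, in the gene body 20070 bp downstream of it. Vwf had chr6:125573248-125573568 and chr6:125583791-125584028 in its body, 20300 and 30843 bp from its nearer end. The Clu region (chr14:65968406-65968729) spanned an end of that gene. Of the Itga2b regions, chr11:102456061-102456268 and chr11:102467034-102467360 were in the body and chr11:102470004-102470323 lay 121 bp upstream of the start. The Pf4 region (chr5:90772329-90772586) spanned the gene's start. Exons and introns were not distinguished, since the annotation used gives gene spans only.

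The open regions at the starts of Pf4 and Itga2b are the ones for which RefSeq promoter sequence (GRCm38.p6) overlaps the measured interval. They are shown 5′ to 3′ along the gene, with motif matches in capitals; the Pf4 stretch ends at the base before the start and the Itga2b stretch, which runs from base 250 to base 121 before it, ends where the region does.
Pf4, chr5:90772329-90772434, plus strand: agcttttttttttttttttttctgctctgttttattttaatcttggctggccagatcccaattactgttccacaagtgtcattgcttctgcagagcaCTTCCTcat
Itga2b, chr11:102470004-102470133, minus strand: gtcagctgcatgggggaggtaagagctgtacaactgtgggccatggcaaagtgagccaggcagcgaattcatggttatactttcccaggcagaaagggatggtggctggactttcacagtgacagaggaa

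The overlaps were searched on both strands for GATA letters (AGATAA or TGATAA or AGATAG or TGATAG), ETS letters (CCGGAA or AGGAAG) and RUNX letters (TGTGGT or TGCGGT), and for an NF-κB motif. Within 156 bp, which include the first 50 bases after the start, Pf4 had 2 ETS matches, at bases 9 to 4 before the start (AGGAAG on the opposite strand, in capitals above) and at bases 15 to 20 after it (CCGGAA on the opposite strand). It had 1 GATA match, AGATAA, at bases 37 to 42 after the start, and these matches do not overlap each other. In the same window, 30.0% of 32851 RefSeq promoters held an ETS match and 15.2% a GATA match. Pf4 had 0 RUNX and 0 NF-κB matches, which 12.4% and 0.201% of promoters held. The 130 bp of Itga2b had 0 matches to any of these motifs, where 19.4% of promoters had an ETS, 16.6% a GATA, 10.1% a RUNX and 0.164% an NF-κB match.

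Depth sets the precision of what follows. Totals ran from 121599 to 963699 counts per library, and the median count of a region over the 23 replicates lay between 4 and 32 in the set. Levels are in CPM, read counts divided by TMM-scaled library sizes. Mean levels ran from 18.7 CPM for the second Vwf region to 119 CPM for the Selp gene body, against a median of 50.5 CPM over all tested regions. The library of IκB– HSC replicate 3 stood apart: on the first principal component (21.3% of the variance) it lay at 59.3, the end held by IκB– MPP3 (26.2 to 53.8), while the other IκB– HSC libraries lay at -45.1 and -24.5. Regions assigned to surface markers of the gates followed the labels in part. The 3 Flt3 regions had their highest mean of each recipient type in MPP4, for example 72.4 CPM in IκB– MPP4 against 27.1 in IκB– HSC at chr5:147366418-147366731. The Slamf1 (CD150) region had 34.7 CPM in WT HSC and 28.3 in WT MPP2 against 6.49 in WT MPP3 and 20.1 in WT MPP4, although the labels write the HSC gate as lacking CD150.

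The region inside Cavin2 was open in HSC and MPP2 and nearly closed in MPP3, in both recipient types. Cavin2 encodes a caveola-associated, phosphatidylserine-binding protein that is abundant in platelets. In WT recipients it had 141, 141 and 47.2 CPM in the 3 HSC replicates, 168, 118 and 132 in MPP2, 15.2 and 12.2 in MPP3, and 34.8, 55.6 and 38.2 in MPP4. In IκB– recipients the values were 165, 80.4 and 26.6 CPM in HSC, 133, 110 and 98.8 in MPP2, 1.91, 14.1 and 0 in MPP3, and 21.8, 30.4 and 6.16 in MPP4. The third HSC replicate was the lowest of its group under both recipients, and no MPP3 replicate reached the level of any HSC or MPP2 replicate of its own recipient type. The 0 in IκB– MPP3 replicate 3 allows up to 8.11 CPM (3 counts, counting error only).

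**Figure D1:**
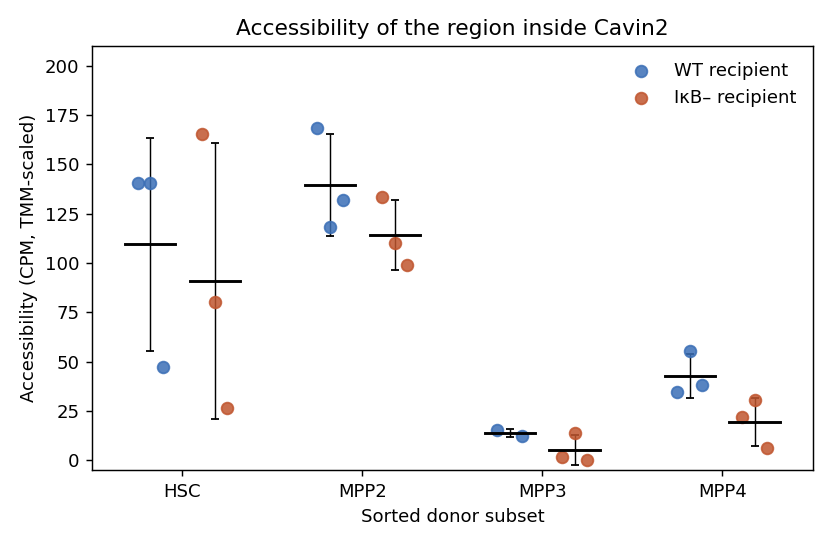
Accessibility of the region inside Cavin2 in CPM (y axis) by sorted subset (x axis) for WT (blue) and IκB– (orange) recipients; points are replicates, thick lines means and thin bars SD (n = 3, but n = 2 in WT MPP3). MPP2 replicates lie between 98.8 and 168 CPM and MPP3 replicates between 0 and 15.2.

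Ordered by mean, the 8 groups were WT MPP2 (139 CPM), IκB– MPP2 (114), WT HSC (110), IκB– HSC (90.7), WT MPP4 (42.9), IκB– MPP4 (19.4), WT MPP3 (13.7) and IκB– MPP3 (5.32). Replicate ranges of neighbours in this order overlapped in 6 of 7 cases, the exception being WT and IκB– MPP4.

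Whether the drop from HSC to MPP3 recurs in libraries that did not bring the region into the set was asked in IκB– recipients. There the Cavin2 region fell by 4.14 on the log2 scale in MPP3 against HSC (SE 0.65; edgeR adjusted p 0.000598), from 90.7 ± 69.9 CPM (SD, n = 3) to 5.32 ± 7.62 (n = 3), and the replicates did not overlap. It ranked 4 of 13325 regions by p, and it was the only 1 of the 10 regions called (adjusted p under 0.05), where 0.923% of all tested regions were called and 0.841% were called lower in MPP3. The size for WT recipients, which the choice of the region used, was -2.97 ± 0.55 (SE). In that comparison 0.0826% of all regions were called, and nothing is read from it. Without IκB– HSC replicate 1 the change was -3.27 with an edgeR adjusted p of 0.0600, and without replicate 3, which stands apart, it was -4.69. Without IκB– MPP3 replicate 1 it was -3.41 (adjusted p 0.0318), and without IκB– MPP3 replicate 2, which held 6 of that group's 8 counts, -5.57 (0.000109). When only the libraries of these 2 groups were fitted, the region did not pass the filter on low counts and was not tested.

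Subsets were then pooled: MPP3 and MPP4 together against HSC and MPP2 together, within IκB– recipients. The Cavin2 region had 12.4 ± 12 CPM (SD, n = 6) against 102 ± 47.4 (n = 6), which is -3.43 ± 0.42 (SE) in log2 units; edgeR gave an adjusted p of 1.50e-06, rank 6 of 13325. It was called under each of 33 alternatives, with adjusted p up to 0.000372 and sizes from -4.14, without IκB– MPP3 replicate 2, to -3.00, without IκB– HSC replicate 1. An exact two-sided permutation test of log2 CPM over the 12 libraries, added after the values were seen, gave p 0.00433, where 0.00216 is the smallest possible. Replicate ranges overlapped, since HSC replicate 3 (26.6 CPM) lay below MPP4 replicate 2 (30.4 CPM). It was the 1 region of the 10 that was called, where 5.41% of all tested regions were called, 4% lower and 1.41% higher in MPP3 and MPP4. Among regions over 1 kb from a gene end, where the Cavin2 region lies, 7.69% were called lower, against 1.09% of those within 1 kb.

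Against HSC alone, MPP4 of IκB– recipients had a log2 fold change of -2.28 ± 0.60 (SE) at Cavin2, which missed the threshold (edgeR adjusted p 0.0987; 0 of the 10 regions and 0.12% of all regions called). It was -2.84 with an adjusted p of 0.00409 without IκB– HSC replicate 3, -2.27 with 0.00807 under the replicate block, and -1.40 with 0.378 without replicate 1. MPP2 differed from HSC by 0.45 ± 0.44 in IκB– recipients (adjusted p 0.792), less than its replicate spread, and 0 regions of the series were called there (1162 at an unadjusted p under 0.05 by edgeR). In WT recipients, whose HSC libraries the choice of the region used, the sizes were 0.37 ± 0.39 for MPP2 and -1.28 ± 0.49 for MPP4, and among the other 9 regions 0 were called in either comparison, where 0% and 0.0075% of all regions were (503 and 724 at an unadjusted p under 0.05 by edgeR).

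Levels of other marker lists in the same libraries are given here, and their part in the pattern was not tested. Of 7 megakaryocyte markers outside the set only Gp1ba, a subunit of the receptor for Vwf, had a tested region, and the others, among them Gp1bb, Gp5, Gp6, Gp9 and Ppbp, had none. The Gp1ba region ran from 22.2 to 27.5 CPM in IκB– HSC, 14.7 to 32.0 in MPP2, 0 to 5.74 in MPP3 and 9.25 to 15.2 in MPP4. Stem and progenitor markers (8 of 11 genes with a region) summed to 639 to 867 CPM in IκB– HSC and 800 to 902 in MPP2 against 911 to 1000 in MPP3 and 957 to 1129 in MPP4, and 1 of their 19 regions, at Cd34, was called (1.52 ± 0.40 SE higher in MPP3 and MPP4, edgeR adjusted p 0.0167), a share of 5.26% against 5.41% of all regions. Another Cd34 region had 131 and 132 CPM in IκB– HSC and MPP2 against 107 and 114 in MPP3 and MPP4. Myeloid markers (4 of 8 genes with a region) summed to 62.5 to 131 CPM in IκB– HSC, 51.4 to 77.9 in MPP2, 60.9 to 149 in MPP3 and 91.2 to 158 in MPP4. In IκB– recipients the share of nuclear counts near gene ends was higher in MPP3 than in MPP2 and than in all but 1 HSC library. It was 63.0% to 74.1% in HSC, 65.4% to 67.7% in MPP2, 69.1% to 72.0% in MPP3 and 65.1% to 69.3% in MPP4. In WT recipients it was 66.0% to 70.5%, 67.8% to 68.2%, 67.8% to 67.9% and 61.6% to 71.4% in the same subsets. A change in the fraction of cells with the region open and a change within each cell cannot be told apart in sorted populations.

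Vwf, the large adhesive glycoprotein of plasma and platelets, had its more open region nearer to the gene end. In WT recipients this region had 61.1, 58.6 and 70.7 CPM in HSC, 53.2, 63.6 and 38.5 in MPP2, 34.1 and 49.0 in MPP3, and 27.8, 27.8 and 57.3 in MPP4. In IκB– recipients it had 68.8, 26.8 and 48.8 CPM in HSC, 58.4, 44.0 and 50.7 in MPP2, 22.0, 44.5 and 54.1 in MPP3, and 46.2, 60.8 and 30.8 in MPP4. WT HSC lay above WT MPP3 and WT MPP4 without overlap, whereas all IκB– groups overlapped. The pooled subset comparison in IκB– recipients gave -0.35 ± 0.28 (SE; edgeR adjusted p 0.590).

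The second Vwf region, deeper in the gene, was sparse, with 0 to 14 counts per replicate. Its means were 29.0 and 33.5 CPM in WT HSC and MPP2 against 6.49 in WT MPP3 and 21.7 in WT MPP4, and 19.8, 21.2, 1.28 and 12.7 in the same subsets of IκB– recipients. In IκB– MPP3 2 of 3 replicates were at 0 counts, as was 1 of 3 in IκB– HSC, and the HSC mean rested on replicate 1 with 55.1 CPM. The pooled subset comparison gave -1.92 ± 0.63 (SE) and missed the threshold (edgeR adjusted p 0.0650). No MPP3 replicate exceeded 9.18 CPM, so the region passed the filter on low counts through libraries of other subsets. This limits what its low level in MPP3 shows.

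Selp, or P-selectin, is the adhesion receptor that platelets bring to their surface when activated. Its gene body held the most open region of the set, with 147, 106 and 80.2 CPM in WT HSC, 155, 97.0 and 88.0 in WT MPP2, 135 and 81.1 in WT MPP3, and 132, 86.9 and 105 in WT MPP4. In IκB– recipients it had 96.4, 71.5 and 169 CPM in HSC, 143, 103 and 136 in MPP2, 118, 89.0 and 170 in MPP3, and 161, 98.8 and 160 in MPP4. Replicates varied by more than the groups did, and the pooled subset comparison in IκB– recipients was 0.10 ± 0.21 (SE; edgeR adjusted p 0.884). The region upstream of Selp had another profile, with means of 28.6, 24.3, 6.27 and 19.1 CPM in WT HSC, MPP2, MPP3 and MPP4 and of 15.8, 31.3, 4.84 and 16.7 in IκB– recipients. Both MPP3 groups were the lowest, and the pooled comparison in IκB– recipients was -1.42 ± 0.55 (adjusted p 0.135). No MPP3 replicate exceeded 9.48 CPM, so this upstream region passed the filter on low counts through libraries of other subsets, which limits what its low MPP3 level shows. That the 2 Selp regions differ from each other was not tested.

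Pf4 encodes platelet factor 4, a chemokine of the platelet alpha granule. The region over its start, whose sequence is shown above, had 30.6, 46.9 and 28.3 CPM in WT HSC, 36.2, 81.8 and 44.0 in WT MPP2, 24.7 and 27.6 in WT MPP3, and 0, 38.2 and 14.3 in WT MPP4. In IκB– recipients it had 34.4, 62.5 and 8.87 CPM in HSC, 58.4, 29.4 and 50.7 in MPP2, 16.3, 14.1 and 21.6 in MPP3, and 19.0, 30.4 and 9.25 in MPP4. MPP2 had the highest mean under both recipients, 54.0 and 46.2 CPM, and in IκB– recipients all MPP2 replicates lay above all MPP3 replicates. The pooled subset comparison in IκB– recipients gave -1.17 ± 0.41 (SE) with an edgeR adjusted p of 0.0954.

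**Figure D2:**
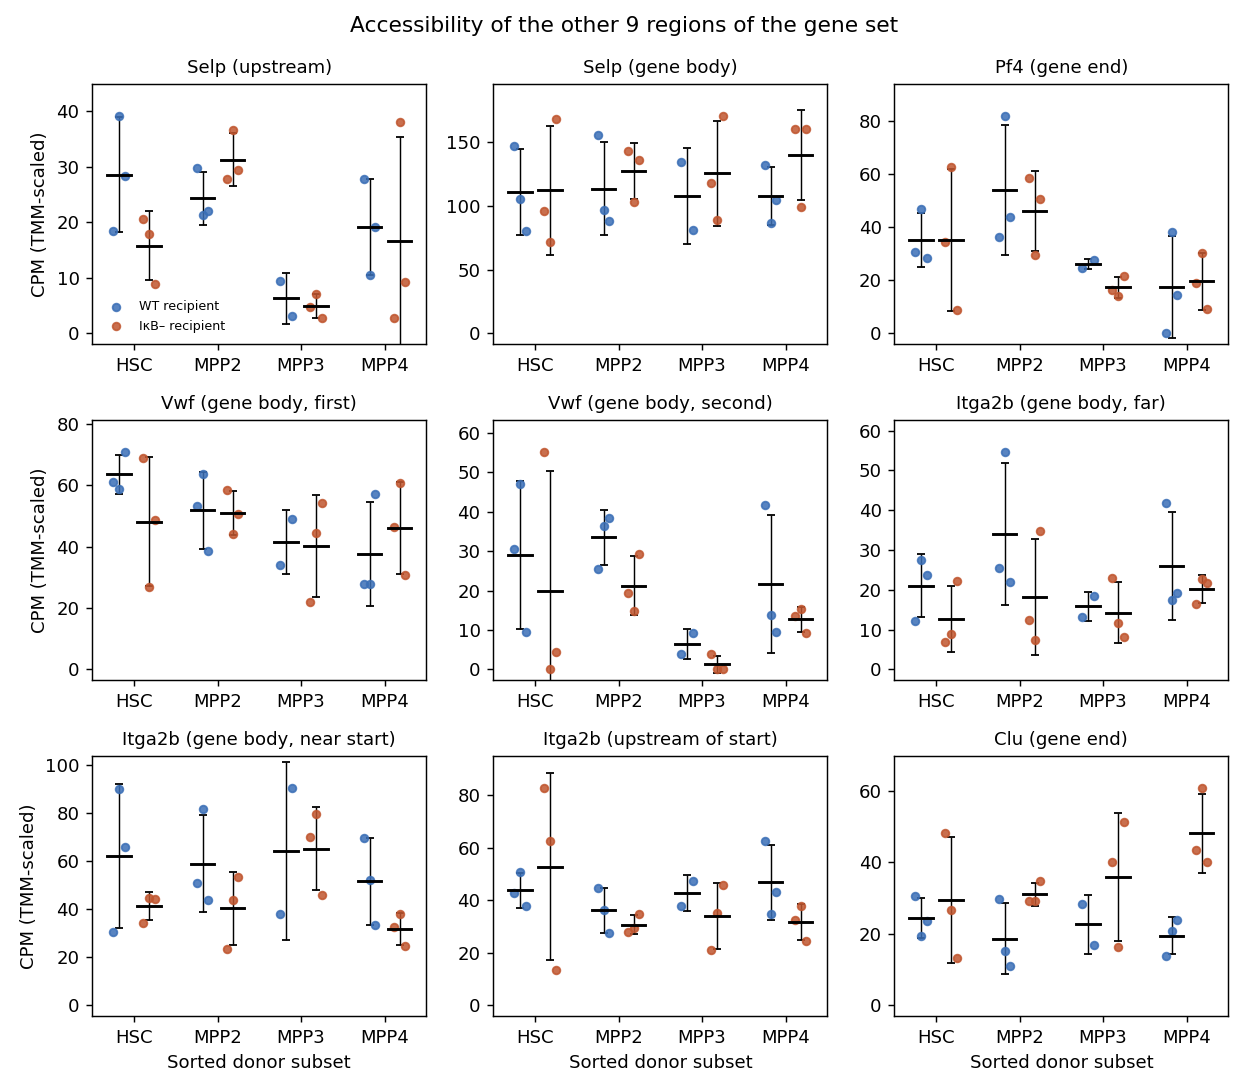
Accessibility in CPM (y axes) of the other 9 regions by sorted subset (x axes) for WT (blue) and IκB– (orange) recipients; points are replicates, thick lines means and thin bars SD. The upstream Selp region and the second Vwf region have their lowest mean in MPP3 under both recipients, and both passed the filter on low counts through other subsets. The Selp gene body stays between 108 and 140 CPM in the group means.

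Whether these 3 regions were called in the pooled comparison of IκB– recipients depended on single libraries and on the method. With all libraries kept, the second Vwf region was called with cyclic loess scaling (-1.96, adjusted p 0.0324), DESeq2 (-2.08, 0.0414) and the replicate block (-1.95, 0.0260), the Pf4 region with the block (-1.17, 0.0320), and the upstream Selp region with limma-voom (-1.63, 0.0464). Without IκB– HSC replicate 3 the Pf4 region (-1.47, edgeR adjusted p 0.0111) and the second Vwf region (-2.23, 0.0113) were called beside Cavin2. Without IκB– HSC replicate 2 or IκB– MPP3 replicate 1 the second Vwf region was called (-2.12 with 0.0404, and -3.20 with 0.0365), and without IκB– MPP4 replicate 2 the upstream Selp region was (-1.92 with 0.0329). Without IκB– HSC replicate 1, the one high HSC library for the second Vwf region, that region was at -0.63 (0.863). Against HSC alone, the second Vwf region of IκB– MPP3 had -3.01 ± 1.02 (edgeR adjusted p 0.170); it was -3.63 with 0.0252 without IκB– HSC replicate 3, -0.44 with 0.961 without replicate 1, and -5.58 with 0.159 without IκB– MPP3 replicate 1.

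Itga2b (CD41) encodes the alpha chain of the platelet fibrinogen receptor and is an early marker of the lineage. The most open of its 3 regions, 2523 bp downstream of the start, had 30.6, 89.9 and 66.0 CPM in WT HSC, 51.1, 81.8 and 44.0 in WT MPP2, 37.9 and 90.3 in WT MPP3, and 69.5, 52.1 and 33.4 in WT MPP4. In IκB– recipients it had 34.4, 44.7 and 44.4 CPM in HSC, 23.6, 44.0 and 53.4 in MPP2, 69.9, 79.7 and 46.0 in MPP3, and 32.6, 38.0 and 24.7 in MPP4. IκB– MPP3 was the highest IκB– group, at 65.2 ± 17.3 CPM (SD, n = 3), with no overlap with HSC (0.67 ± 0.43 SE; edgeR adjusted p 0.616). The region 121 bp upstream of the start, whose sequence is shown above, had group means from 30.6 to 52.8 CPM and the one far downstream from 12.7 to 34.0. In the pooled subset comparison the 3 regions gave 0.20 ± 0.32, -0.29 ± 0.32 and 0.09 ± 0.47 (SE; edgeR adjusted p 0.834, 0.726 and 0.958). In WT recipients the same sizes were -0.12 ± 0.29, 0.10 ± 0.32 and -0.48 ± 0.44.

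Clu encodes clusterin, a secreted chaperone known as a marker of aged stem cells. The region at its gene end had 30.6, 19.5 and 23.6 CPM in WT HSC, 29.8, 15.2 and 11 in WT MPP2, 28.5 and 16.8 in WT MPP3, and 13.9, 20.9 and 23.9 in WT MPP4. In IκB– recipients it had 48.2, 26.8 and 13.3 CPM in HSC, 29.2, 29.4 and 34.7 in MPP2, 40.2, 16.4 and 51.4 in MPP3, and 43.5, 60.8 and 40.1 in MPP4. All 3 IκB– MPP4 replicates lay above all 3 of WT MPP4, while in HSC, MPP2 and MPP3 the recipients overlapped.

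**Figure D3:**
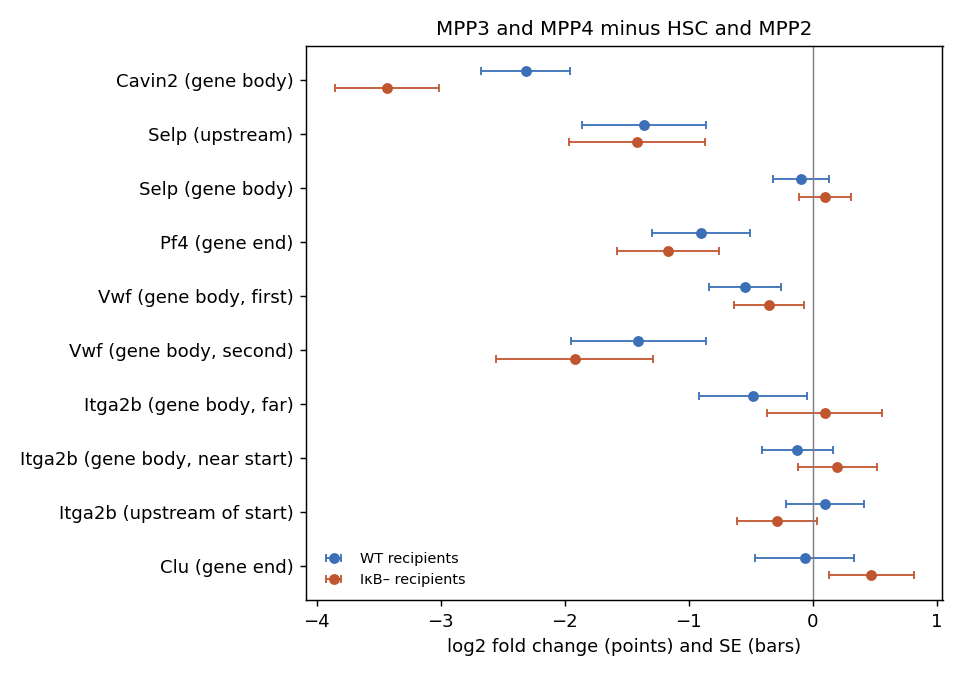
Log2 fold change (points, x axis) with SE (bars) of MPP3 and MPP4 against HSC and MPP2 for the 10 regions (y axis) in WT (blue) and IκB– (orange) recipients; the WT values are a description, as they share libraries with the choice of the Cavin2 region. Cavin2 lies farthest to the left at -2.31 and -3.43, and the Selp gene body lies at -0.10 and 0.10.

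Over the set, the pooled comparison in IκB– recipients had 6 regions lower and 4 higher, with a median log2 fold change of -0.32 against 0.00065 over all tested regions. In WT recipients, as a description, 9 were lower and 1 higher with a median of -0.51, and 0.78% of all regions were called. Across the 23 replicates the 45 pairs of regions had a median Pearson r of 0.0904 in log2 CPM, from -0.499 to 0.772. The highest values joined Cavin2 to the upstream Selp region (0.772) and to the second Vwf region (0.717), these 2 to each other (0.618), and Cavin2 to Pf4 (0.573), whereas the Itga2b regions correlated with each other at up to 0.451. These correlations are descriptions over points that share subset, library and depth.

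Regions outside the set whose profile over the 23 replicates was among the most like that of Cavin2 were, by Pearson r of log2 CPM, one 1938 bp from an end of Casp12 (chr9:5343071-5343504, r 0.934), one with no gene within 50 kb (chr1:145138891-145139303, 0.925), one 3165 bp from Tex48 (chr4:63625598-63625887, 0.919) and another with no gene within 50 kb (chr15:44882243-44882595, 0.910). None of these 4 lay within 1 kb of a gene end, and none was assigned to a gene of the platelet or ageing lists below. The region near Casp12 had 117 and 128 CPM in WT HSC and MPP2 against 54.5 and 79.1 in WT MPP3 and MPP4, and 112, 156, 24.8 and 30.8 in IκB– recipients.

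Recipients were compared within each subset to ask whether an IκB– host changes these regions in donor cells. None of the 10 was called in HSC, MPP2, MPP3 or MPP4, where 0%, 0%, 0.21% and 0.045% of all tested regions were called. At an unadjusted p under 0.05 by edgeR the counts in the set were 0, 0, 0 and 2, and over all regions 841, 487, 1268 and 946. The 2 were Cavin2 in MPP4, with 19.4 ± 12.3 CPM against 42.9 ± 11.2 in WT (SD, n = 3 each), -1.36 ± 0.64 (SE) and an edgeR adjusted p of 0.683, and Clu in MPP4, with 48.1 ± 11.1 against 19.5 ± 5.11 CPM, 1.17 ± 0.53 and 0.643. At Cavin2 the other subsets gave -0.36 ± 0.46 in HSC, -0.28 ± 0.37 in MPP2 and -1.53 ± 0.79 in MPP3, the first and last of which share libraries with the choice of the region and are descriptions. In the joint edgeR test of whether the recipient effect differed between subsets, 0 of the 10 regions were called, as were 0% of all regions; for Cavin2 this joint comparison uses the libraries that chose it and is no test.

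The mean recipient effect over the 4 subsets likewise called 0 of 10, where 1.73% of all tested regions were called. Clu had 0.66 ± 0.26 (SE; edgeR adjusted p 0.207) and the most open Itga2b region -0.51 ± 0.21 (0.239). Cavin2 had -0.88 ± 0.29 (SE), a description, since the WT HSC and WT MPP3 libraries enter this mean. In the set, 8 of the 10 estimates were below 0 with a median of -0.35 against -0.0015 over all regions. The count of 0 was 1 with the replicate block, without IκB– HSC replicate 1 and without IκB– MPP3 replicate 2. The region was Cavin2 each time, at -0.87, -1.10 and -1.23. As the WT libraries that chose it enter this mean, these calls are no test of it.

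**Figure D4:**
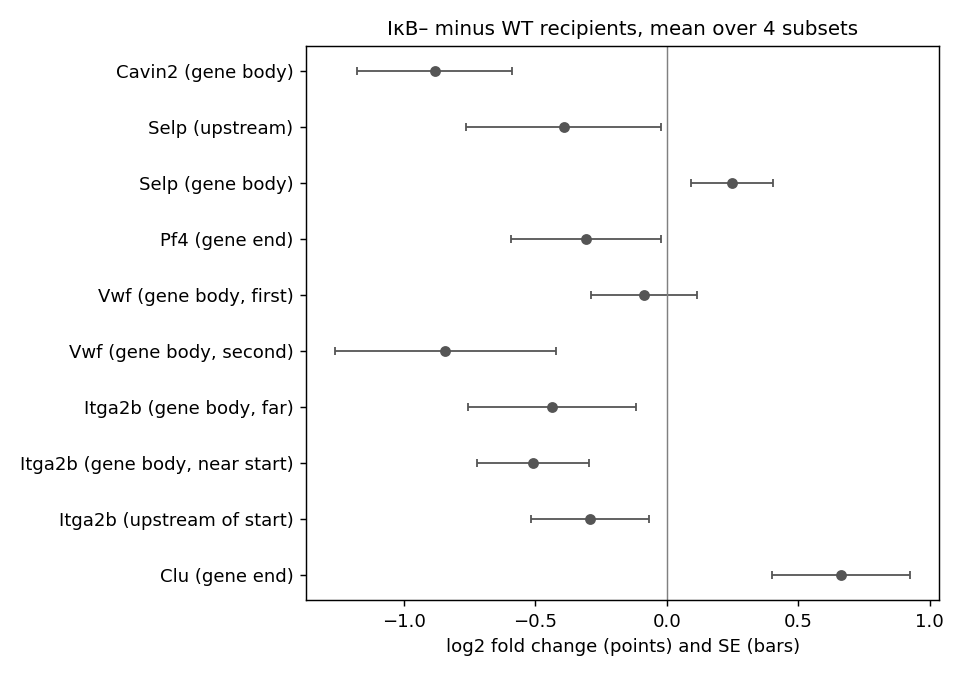
Log2 fold change (points, x axis) with SE (bars) of IκB– against WT recipients, averaged over HSC, MPP2, MPP3 and MPP4, for the 10 regions (y axis). Cavin2 lies at -0.88 and Clu at 0.66, and none passed the threshold in the fit shown, which has no replicate block.

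Other genes of the megakaryocyte and platelet programme were taken from a list of 45, of which 32 had a tested region and 57 regions were assigned. In the pooled comparison of IκB– recipients 11 of the 57 regions fell in MPP3 and MPP4 and 2 rose (22.8% called, against 5.41% of all regions), with a median log2 fold change of -0.0078 against 0.00065 over all. By place, 7.69% of all regions over 1 kb from a gene end were called lower and 2.64% higher. Within 1 kb the shares were 1.09% and 0.443%. Of the called list regions only that at Gp1ba lay within 1 kb of a gene end, and the list was not split by place. Among structural and adhesive proteins, a region inside Tubb1, the platelet beta-tubulin, fell by 2.0 (SE 0.41, edgeR adjusted p 0.00155), one near Mmrn1, a platelet adhesion protein, fell by 2.47 (SE 0.42, 0.000170), one near Thbs1, thrombospondin, fell by 1.22 (SE 0.32, 0.0135), and that at the end of Gp1ba fell by 1.85 (SE 0.51, 0.0209). All 3 called regions inside Rab27b, a GTPase of granule secretion, fell, the farthest by 2.56 (SE 0.48, 0.000553). Among transcriptional regulators, 2 regions inside Zfpm1, the GATA1 cofactor, fell by 1.20 and 1.84 (adjusted p 0.0360 and 0.0114) and 1 inside Runx1 fell by 0.90 (0.0228). A region near Nrgn fell by 1.10 (0.0185). The WT levels did not all follow the same order: in WT HSC, MPP2, MPP3 and MPP4 the Thbs1 region had 48.1, 63.6, 51.1 and 44.3 CPM. The Nrgn region had 56.7, 50.7, 45.1 and 53.9 CPM and the Mmrn1 region 45.0, 59.6, 18.3 and 47.8 CPM in the same groups. In the joint edgeR test of whether the recipient effect differed between subsets, 0 of all 13325 tested regions were called, these included. The pooled subset difference alone was not compared between recipients.

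Between recipients, 3 of the 57 platelet-list regions were lower in IκB– by the mean effect and 0 higher. Of all regions 1.13% were called lower, and 2.16% of those over 1 kb from a gene end, where these 3 lie. They were the 2 Zfpm1 regions (-0.98 ± 0.23 and -1.23 ± 0.29 SE, edgeR adjusted p 0.0199 each) and one near Gfi1b, a repressor needed for megakaryocyte and erythroid maturation (-0.91 ± 0.22, 0.0253). The first Zfpm1 region had 94.0 CPM in WT HSC and 48.8 in IκB– HSC, the second 45.7 and 23.3. Erythroid markers (3 of 6 genes with a region) summed to 128 to 160 CPM in WT HSC and 79.9 to 116 in IκB– HSC, without overlap, and overlapped between recipients in MPP2, MPP3 and MPP4. The 57 platelet-list regions summed to 3320 to 3631 CPM in WT HSC and 2726 to 3199 in IκB– HSC, also without overlap. In MPP4 they summed to 3022 to 3240 in WT against 2629 to 2818 in IκB–, and in MPP2 and MPP3 the recipients overlapped. The part of the erythroid markers in these differences was not tested.

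Genes known from lists of stem cell ageing numbered 32 outside the set, of which 18 had a tested region and 27 regions were assigned. In the pooled comparison of IκB– recipients 8 of the 27 fell and 0 rose (29.6% called, against 5.41%), with a median of -0.45 against 0.00065. They lay at Nupr1, a stress-response regulator (-2.70 ± 0.51 SE, edgeR adjusted p 0.000668), Exoc6b, an exocyst subunit (-2.22 ± 0.38, 0.000191), Aldh1a1, a retinaldehyde dehydrogenase (-2.18 ± 0.53, 0.00702), Rorb, Ehd3, Plscr2, Gda and Dhrs3, the last 5 with -1.45 to -1.19. Those at Rorb, Ehd3 and Plscr2 lay within 1 kb of a gene end, where 1.09% of all regions were called lower. The others lay farther away, where 7.69% were. The Nupr1 region had 43.4 and 23.5 CPM in WT HSC and MPP2 against 8.20 in WT MPP3 and 26.1 in WT MPP4, and 35.8, 35.5, 3.74 and 9.41 in the same IκB– groups. At Plscr2 the mean of WT MPP3 was not below that of WT HSC, with 70.6, 90.8, 72.4 and 62.3 CPM in WT HSC, MPP2, MPP3 and MPP4. At each of the other called regions of this list it was. Against HSC alone, the regions at Exoc6b and Nupr1 also fell in IκB– MPP3 (-2.49 and -2.97, edgeR adjusted p 0.0132 and 0.0361), as did those at Tubb1 and Mmrn1 of the platelet list (-2.49 and -2.95, 0.0250 and 0.00930). Between recipients, 1 of the 27 was called by the mean effect, the Slamf1 region (-1.95 ± 0.44, edgeR adjusted p 0.0160), which is 3.70% of the list against 1.73% of all regions. The Slamf1 region lay over 1 kb from a gene end, where 2.16% of all regions were called lower and 1.11% higher. Of the 19 stem and progenitor marker regions, which include this one, 2 were called by the mean effect (10.5%), the other being a Cd34 region that was higher in IκB– (1.12 ± 0.28 SE, edgeR adjusted p 0.0321), with 42.4 against 12.5 CPM in HSC and 43.1 against 10.5 in MPP2.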

How the data were processed

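The authors deposited 1 table of raw counts per region for 24 libraries, as whole numbers that are not normalized. Per the submitters' processing notes the build was mm10, and Bowtie2, SAMtools, Picard, MACS2 2.1.0 and deepTools were used; their roles, the transposase offset, duplicate handling and the counting tool are not given in the sources used here. Regions were assigned with RefSeq GRCm38.p6 gene spans.

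The last pair of WT MPP3 libraries (replicates 2 and 3) agreed within sampling noise, with a chi-square of 1.005 for each degree of freedom (p 0.348, 13126 regions), and was summed. Counts were tested in edgeR 4.0.16 (R 4.3.3): TMM, filterByExpr, a robust quasi-likelihood fit of 8 group means with 15 residual degrees of freedom, and Benjamini-Hochberg adjustment over all 13325 tested regions. The SE is the absolute log2 fold change divided by the square root of F. The fit was also run on simulated counts with known changes, and the outcome is not reported here. Alternatives were DESeq2 1.42.0, limma-voom (limma 3.58.1), other scalings, no filter, 24 libraries apart, a replicate block, no mitochondrial regions, only the groups compared, and leaving out each replicate.

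Same-numbered libraries deviated together (r over 0.1 for each number) for WT HSC with IκB– HSC (0.152 to 0.376), WT MPP2 (0.137 to 0.204) and WT MPP4 (0.182 to 0.235); with the replicate block those comparisons called 0 of the 10 regions, as without it. Members, lists, motifs and comparisons were chosen with earlier results of these data known. Values per replicate were given for Cavin2, the only region of the set called, and for the most open region of each gene of the set, and of the 5 regions most like Cavin2 by Pearson r, 4 were named and 1 is not reported here. B-lineage, T-lineage, erythroid and endothelial or stromal marker lists had 1, 1, 3 and 1 tested regions, of which 0 were called in any tested comparison.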

Additional observations from a re-analysis of the deposited data

How the results depend on the processing

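The number of regions of the set called in the 4 recipient comparisons, in the interaction test, in MPP2 against HSC of either recipient and in MPP4 against HSC of WT was 0 under every alternative run. For MPP3 and MPP4 against HSC and MPP2 in IκB– recipients it was 1, and 2 with cyclic loess, limma-voom or DESeq2, 3 with the replicate block, and 1 to 3 when a replicate was left out. The replicate block also gave 1 (Cavin2) for the mean recipient effect (-0.87) and for MPP4 against HSC in IκB– recipients (-2.27, edgeR adjusted p 0.00807), each 0 without it. The mean recipient effect holds the WT HSC and WT MPP3 libraries that chose the Cavin2 region, so its call there is no test. The labels do not say what a number marks. Same-numbered libraries of IκB– HSC and MPP4 had r of 0.0374 to 0.310; between recipients every number had r over 0.1 in HSC and not in MPP2, MPP3 or MPP4. Replicate 3 had the highest first principal component in each of the 7 groups with 3 replicates, and every library correlated best with its own number in 6 of 10 pairs of groups, which is a hint from the data and not from the design. Leaving out a replicate gave 0 to 1 for the mean recipient effect and for MPP4 against HSC in IκB– recipients. It gave 0 to 2 for MPP3 against HSC in IκB– recipients, where fitting only the groups compared gave 0. Fold changes of Cavin2, Clu, Pf4, the second Vwf, upstream Selp and most open Itga2b regions that were recomputed did not reverse; those of the other regions were not recomputed. The number of all regions called ran from 365 to 1528 in the pooled comparison (721 as reported), 0 to 701 in MPP3 (123) and 0 to 128 in MPP4 (16) against HSC of IκB– recipients, 53 to 481 for the mean recipient effect (231), and 0 to 357 in MPP3 (28) and 0 to 9 in MPP4 (6) between recipients. With 10 kb in place of 50 kb the set kept 10 regions, and total counts in place of TMM moved 0 of 80 group levels by more than their SD. Depth limits the sparse regions most: the second Vwf and upstream Selp regions had a median of 4 counts, their calls changed with single libraries and with the method, and upstream Selp passed the filter in 22 of 33 alternatives.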

Other observations

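Of the platelet list, 2 regions were called higher, against 11 called lower, in the pooled subset comparison of IκB– recipients. A region inside Tbxas1, which encodes thromboxane synthase, was higher in MPP3 and MPP4 (log2 fold change 2.06 ± 0.49 SE, edgeR adjusted p 0.00628), with 7.41 and 7.01 CPM in IκB– HSC and MPP2 against 25.0 and 46.4 in MPP3 and MPP4. A region inside both P2ry12, the platelet ADP receptor, and Med12l rose by 2.28 (SE 0.66, adjusted p 0.0298), with 1.48, 5.45, 11 and 34.3 CPM in IκB– HSC, MPP2, MPP3 and MPP4. In WT recipients the same subsets had 8.06, 14.7, 19.8 and 29.1 CPM at Tbxas1 and 9.83, 7.81, 16 and 23.3 at P2ry12. Both had their highest mean in MPP4 under each recipient.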
